A study of Mus musculus with 2 samples.

Results

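The 8 genes described here encode proteins that set the lifetime of inflammatory messenger RNAs: Zfp36, Zfp36l1, Zfp36l2, Zc3h12a, Zc3h12c, Rc3h1, Rc3h2 and Elavl1. They were chosen by name, and every probe set that the platform annotation assigned to 1 of these symbols alone was taken, which gave 24 of 34958 such probe sets and 8 of 18193 genes. Primary mouse osteoblasts at day 10 of differentiation, cultured in alpha-MEM that held 10% serum from fetal calves and differentiated with ascorbic acid at 50 µg/ml and beta-glycerophosphate at 10 mM, were starved of serum overnight and then kept for 6 hours in medium conditioned by PC-3 cells or by MDA-PCa2b cells. Both are human prostate cancer lines derived from bone metastases, PC-3 being known for bone-destroying and MDA-PCa2b for bone-forming lesions. The total RNA from either culture was measured on an Affymetrix mouse array, 1 per medium, and the design asked how factors from the PC-3 line and the MDA-PCa2b line differ in their action on osteoblast transcripts. The sources used here give no mouse strain or age, and osteoblasts without tumour-cell medium were not analysed here, so "higher" and "lower" give the direction in PC-3 medium when set against MDA-PCa2b medium. The media were assigned by the source description of each sample, because the PC-3 array is titled with "MDA" as well, and every direction rests on that assignment.

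Many cytokine, chemokine and proto-oncogene messages carry AU-rich or stem-loop elements in their 3′ ends, and proteins bound there decide how long the message lasts. Zfp36 (tristetraprolin) and its relatives Zfp36l1 and Zfp36l2 bind AU-rich elements through paired CCCH zinc fingers and recruit the CCR4-NOT deadenylase. Zc3h12a (regnase-1, also called MCPIP1) is an RNase that cuts stem-loops in messages under translation, together with the helicase Upf1, and the roquins Rc3h1 and Rc3h2 bind stem-loops and also recruit CCR4-NOT. Elavl1 (HuR) binds AU-rich and U-rich elements and in general protects the message. Several of these genes, Zfp36 and Zc3h12a among them, are themselves induced by inflammatory signals in many cell types.

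Zc3h12a was the member that differed most between the media, and Zfp36 (1.14-fold higher) is often studied beside it, so the 250 bases before the start site of each are shown, 5′ to 3′ on the gene's strand, from RefSeq (build GRCm38.p6). Both genes lie on the minus strand, Zc3h12a at chr4:125127882-125128131 and Zfp36 at chr7:28379229-28379478. Capitals mark the GC-box letters GGGCGG on either strand in Zc3h12a and the STAT-type letters TTCNNNGAA in Zfp36.
Zc3h12a: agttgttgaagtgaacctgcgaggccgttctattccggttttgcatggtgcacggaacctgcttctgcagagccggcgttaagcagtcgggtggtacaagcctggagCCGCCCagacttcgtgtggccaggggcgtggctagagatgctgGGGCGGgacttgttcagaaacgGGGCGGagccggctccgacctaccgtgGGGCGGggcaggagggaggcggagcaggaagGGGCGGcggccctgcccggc
Zfp36: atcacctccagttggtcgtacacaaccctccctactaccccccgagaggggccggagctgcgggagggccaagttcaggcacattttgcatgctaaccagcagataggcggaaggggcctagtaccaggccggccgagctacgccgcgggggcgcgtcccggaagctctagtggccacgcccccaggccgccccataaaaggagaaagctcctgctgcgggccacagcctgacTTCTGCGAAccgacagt

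Of the 8 members, 7 had such a window, and Zc3h12c had windows for more than 1 start site, which made 8 windows. The Zc3h12a window held GGGCGG 5 times, and so did the Rc3h1 window. In all, 4 of the 8 member windows held it, against 32.7% of all 32851 mouse windows of this length. TTCNNNGAA was found only in the Zfp36 window among the 8, from 17 to 9 bases before the start site, against 7.02% of all windows. The Zfp36 window also held the EGR1-type letters GCGNGGGCG (4.70% of all windows), which did not overlap its GGGCGG match. The AP-1-type letters TGANTCA were present in Zfp36l1 and Rc3h1, 2 of the 8 windows, against 6.75% of all. The NF-kB-type letters GGGA and TTCC with 2 bases between them were in 0 of the 8 and in 1.21% of all windows. Both strands were searched, and a match or its absence describes these letters in this window alone.

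Signals are linear intensities that the authors had scaled so that both arrays had the same trimmed mean (299.9). Any signal no higher than the median of its array (57.7 with PC-3 medium and 56.7 with MDA-PCa2b medium) was raised to that floor before the log2 ratio was taken. A ratio with 1 array at the floor is a bound, and none is given where both were at the floor. With 1 array per medium there was no replicate check and no test. The error available was the scatter among the probe sets of a gene, whose log2 ratios had an SD of 0.24 over 4924 genes. With genes divided by mean signal into 3 equal classes it was 0.29 in the dimmest, 0.24 in the middle class and 0.21 in the brightest, and it does not include the spread between cultures. Of 11335 genes above the floor on at least 1 array, 2.12% were at least 2-fold higher with PC-3 medium and 1.85% at least 2-fold lower. At 1.5-fold these shares were 5.59% and 6.56%, and the median log2 ratio of all measured genes was -0.04.

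The osteoblast label was checked against textbook markers, of which 5 of 8 had a probe set of their own. All 5 were above both floors, with a summed signal of 40679.8 with PC-3 medium and 45098 with MDA-PCa2b medium, and all 5 had log2 ratios below 0 (median -0.41). The ratio was -2.05 for Dmp1, a late matrix gene (426 with PC-3 medium and 1765 with MDA-PCa2b medium, and -2.25 and -1.88 by its other probe sets), -0.68 for the transcription factor gene Sp7, -0.41 for the alkaline phosphatase gene Alpl, -0.12 for Ibsp and -0.0041 for the collagen gene Col1a1. The macrophage markers were present too, 8 of 8 above both floors, and their summed signal was 15243 with PC-3 medium and 14898 with MDA-PCa2b medium, most of it from Lyz2. Of these 8, 6 had log2 ratios above 0 (median 0.14), the highest being those of Fcgr1 (0.82, and -0.02 by its second probe set) and Cd68 (0.59), and Ptprc (-0.23) and Csf1r (-0.19) were below 0. Of the chondrocyte markers 4 of 4 were above both floors, with a summed signal of 4789.7 with PC-3 medium and 5402 with MDA-PCa2b medium, and a median log2 ratio of -0.29. Col10a1 was 2.61-fold lower (78.1 with PC-3 medium and 204 with MDA-PCa2b medium), and the other 3 were within 2-fold. Of the adipocyte markers 2 of 4 were above both floors, Fabp4 at 522 with PC-3 medium and 265 with MDA-PCa2b medium (1.97-fold higher, log2 ratio 0.78 by its second probe set) and Adipoq at 139 with PC-3 medium and 101 with MDA-PCa2b medium (1.38-fold higher), and the list summed to 668 with PC-3 medium and 371 with MDA-PCa2b medium. No lymphocyte or endothelial marker was above the floor on either array. Of 5 skeletal muscle markers, Acta1 alone was above a floor, that of the MDA-PCa2b array (47.5 with PC-3 medium and 62.7 with MDA-PCa2b medium). Macrophages also express Zc3h12a, Zfp36 and several of the target genes below, and the part of these or other cells in the results was not tested. In RNA of whole cultures, fewer cells of a type and less RNA per cell cannot be told apart.

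All 8 members had at least 1 probe set above the floor. Zc3h12a alone was at least 2-fold higher (1 of 8) and no member was at least 2-fold lower, against 2.12% and 1.85% of all measured genes. The same counts held at 1.5-fold, where these shares were 5.59% and 6.56%. The other 7 genes lay within 1.5-fold by their brightest probe sets. Of the 8 genes, 6 had a log2 ratio above 0, against 44.4% of all measured genes, and the median of the members was 0.36.

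**Figure D1:**
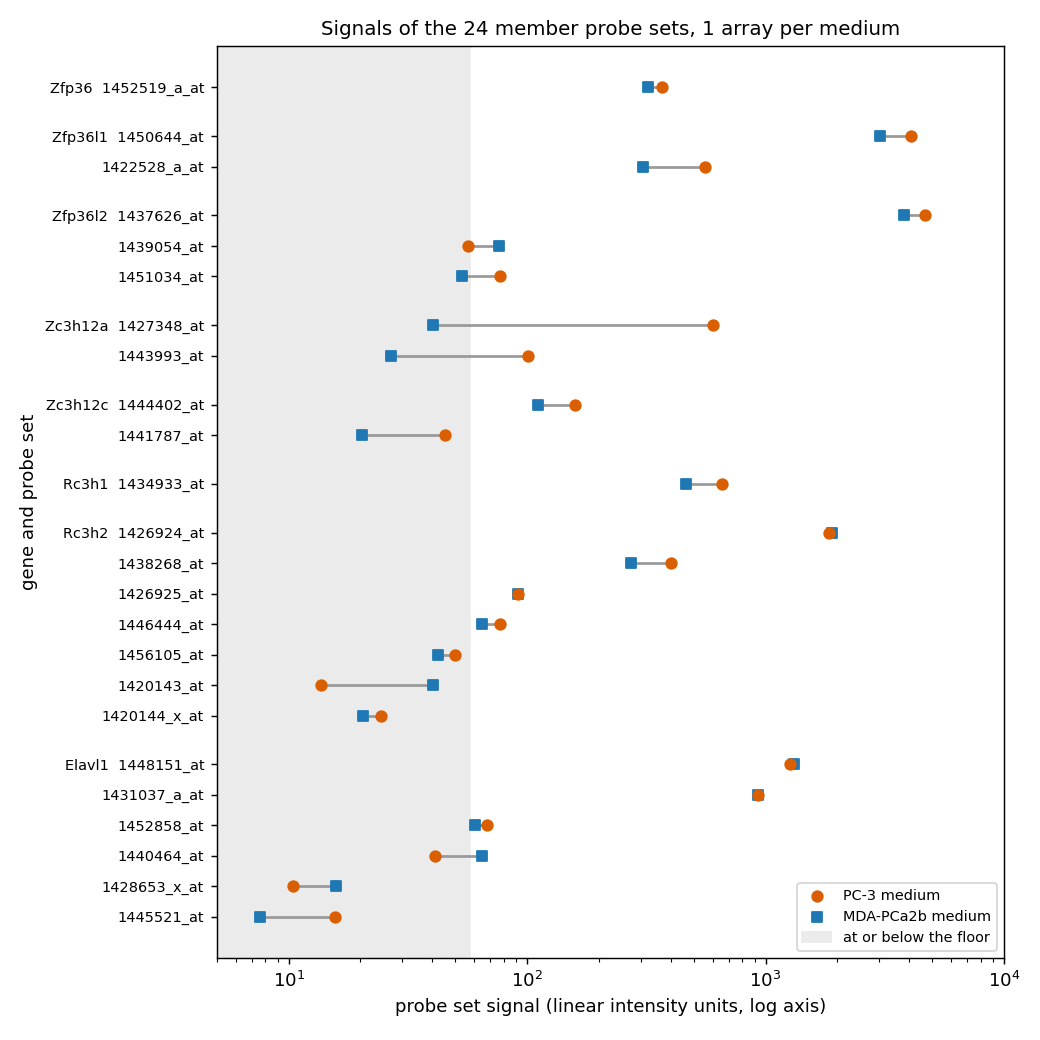
Signal of each of the 24 probe sets on the PC-3 medium array (circles) and the MDA-PCa2b medium array (squares), on a log axis in linear intensity units, with 1 array per medium and signals at or below the floor on grey. The brightest Zc3h12a probe set has the widest gap above the floor, 600.4 with PC-3 medium and 40.3 with MDA-PCa2b medium.

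Zc3h12a, the stem-loop RNase gene, had a signal of 600.4 with PC-3 medium and 40.3 with MDA-PCa2b medium by its brightest probe set. Since the MDA-PCa2b signal was below the floor, the gene was at least 10.6-fold higher (log2 ratio at least 3.40), so its place among all genes depends on the floor. The second probe set gave 101 with PC-3 medium and 27.0 with MDA-PCa2b medium, at least 1.78-fold higher. Both probe sets thus cleared the floor in PC-3 medium and not in MDA-PCa2b medium, with bounds in the same direction but of different size, 3.40 and 0.83 on the log2 scale. The size of the bound followed the floor. A floor at the 75th percentile gave 1.01 on the log2 scale, and the mean over probe sets 2.12.

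The genes measured above the floor on both arrays whose log2 ratio lay nearest to the Zc3h12a bound, over these 2 arrays, were Gbp2, Steap4 and Cxcl9. Gbp2, an interferon-induced GTPase gene, had signals of 4100.3 with PC-3 medium and 402 with MDA-PCa2b medium (log2 ratio 3.35). Steap4, a metalloreductase gene, had a log2 ratio of 3.34, and Cxcl9, an interferon-induced chemokine gene, one of 3.62. The differences from the Zc3h12a value were 0.05, 0.06 and 0.22, and since that value is a bound the order is not a measure of shared behaviour.

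Zc3h12c, a relative of Zc3h12a with the same RNase domain type, was 1.42-fold higher by the 1 probe set that could be measured, with signals of 158 with PC-3 medium and 112 with MDA-PCa2b medium. Its log2 ratio of 0.51 was larger than the scatter SD of 0.29 of the dimmest class but less than 2 such SDs. The other probe set was under both floors (45.2 with PC-3 medium and 20.2 with MDA-PCa2b medium). Among relatives outside the 8, Zc3h12d was under both floors (23.6 with PC-3 medium and 25.2 with MDA-PCa2b medium). N4bp1, another RNase gene of related structure, was 1.22-fold higher. The relative Khnyn had signals of 158 with PC-3 medium and 175 with MDA-PCa2b medium, a log2 ratio of -0.14. The dimmer Khnyn probe sets had log2 ratios of the opposite sign, 0.26 and 0.55.

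Zfp36, the tristetraprolin gene, had signals of 367 with PC-3 medium and 322 with MDA-PCa2b medium, 1.14-fold higher by its only probe set. Its log2 ratio of 0.19 was smaller than the scatter SD of its signal class, and 22.3% of all measured genes had a higher one. That probe set is of a type that can match several transcripts of a gene, and no other probe set was there to set beside it.

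Zfp36l1, the AU-rich-element-binding protein also called BRF1, was higher by both of its probe sets. The brightest gave 4087 with PC-3 medium and 3026 with MDA-PCa2b medium, 1.35-fold (log2 ratio 0.43). The dimmer gave 557 with PC-3 medium and 306 with MDA-PCa2b medium, 1.82-fold (log2 ratio 0.86). Both ratios were larger than the scatter SD of their signal classes, and 9.30% of all measured genes had a higher ratio than the brightest.

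Zfp36l2, also called BRF2, had signals of 4647 with PC-3 medium and 3802 with MDA-PCa2b medium by its brightest probe set, 1.22-fold higher (log2 ratio 0.29). Its other probe sets were close to the floor and went in opposite directions. One gave 76.7 with PC-3 medium and 53.6 with MDA-PCa2b medium (at least 1.35-fold higher), and the other 56.5 with PC-3 medium and 75.9 with MDA-PCa2b medium (at least 1.32-fold lower). All 3 genes of the Zfp36 family had ratios above 0 by their brightest probe sets, and none reached 1.5-fold by those.

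Rc3h1, the roquin-1 gene, was 1.41-fold higher, with signals of 654 with PC-3 medium and 462 with MDA-PCa2b medium on its only probe set. Its log2 ratio of 0.50 was larger than the scatter SD of 0.24 of the middle signal class, and 7.40% of all measured genes had a higher one. Rc3h2, the roquin-2 gene, had almost equal signals by its brightest probe set, 1852 with PC-3 medium and 1904 with MDA-PCa2b medium (log2 ratio -0.04).

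The 7 probe sets of Rc3h2 did not give the same picture. The second brightest gave 400.1 with PC-3 medium and 273 with MDA-PCa2b medium, 1.47-fold higher (log2 ratio 0.55). Another gave 92.0 with PC-3 medium and 91.6 with MDA-PCa2b medium, and the next 77.2 with PC-3 medium and 64.7 with MDA-PCa2b medium (log2 ratios 0.0065 and 0.25). The remaining 3 were below the floor on both arrays. With the mean over the 4 measured probe sets the log2 ratio was 0.19, the opposite sign to that of the brightest.

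Elavl1, the HuR gene, was the member with the lowest log2 ratio, -0.05, with signals of 1264 with PC-3 medium and 1311 with MDA-PCa2b medium. Its second bright probe set gave 927 with PC-3 medium and 928 with MDA-PCa2b medium. Both bright probe sets thus differed by less than the scatter SD. Of the 4 dim ones, 1 gave 67.9 with PC-3 medium and 60.4 with MDA-PCa2b medium, 1 cleared the floor in MDA-PCa2b medium but not in PC-3 medium (41.2 with PC-3 medium and 64.9 with MDA-PCa2b medium), and 2 were below it on both arrays.

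Over the 24 probe sets of the 8 genes, both signals were above the floor for 13. Just the PC-3 signal was above it for 3, just the MDA-PCa2b signal for 2 and neither for 6. Of the 18 with a ratio, 13 were above 0 and 5 below. At least 1.5-fold higher were 3 of the 18, both of Zc3h12a and the dimmer one of Zfp36l1, against 6.3% of all measured probe sets. None of the 18 was at least 1.5-fold lower, against 5.89% of all.

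**Figure D2:**
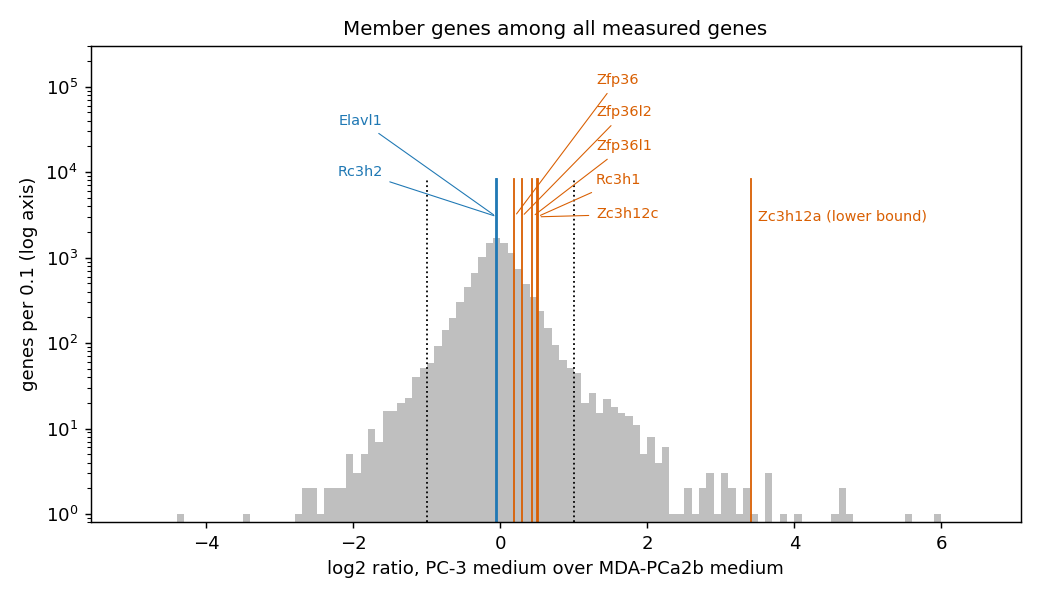
Histogram of the log2 ratio, PC-3 medium over MDA-PCa2b medium, of all 11335 measured genes (grey, log axis), with a line for each of the 8 members and dotted lines at 2-fold. Zc3h12a lies at 3.40, a lower bound, and the other 7 members lie between -0.05 and 0.51, inside the body of the histogram.

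Genes of the decay machinery were near equal between the media by most of their brightest probe sets. Of all measured genes, 2.12% were at least 2-fold higher and 1.85% lower, so a short list may well hold none. Among 18 measured genes of deadenylation, CCR4-NOT subunits among them, none was 2-fold different and the median log2 ratio was 0.02. The largest was that of Btg2, which links RNA-binding proteins to the deadenylase, with signals of 423 with PC-3 medium and 296 with MDA-PCa2b medium (log2 ratio 0.51, and 0.17 by its second probe set). Pan2, the gene of another deadenylase, had a log2 ratio of 0.31. Pabpc1, the poly(A)-binding protein gene, was at 0.01 by its brightest probe set but at a bound of 1.28 by its other one, which was at the floor with MDA-PCa2b medium and made it 1 gene at least 2-fold higher when probe sets that can match several transcripts were left out.

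None of 14 measured decapping and 5′ decay genes differed 2-fold, against 2.12% of all measured genes at least 2-fold higher and 1.85% lower. Their median was 0.0069, and the largest ratios were those of the decapping gene Dcp1b (-0.46) and the Lsm ring gene Lsm7 (0.40). The 5′ exonuclease gene Xrn1 was at 0.27 by its brightest probe set and at 1.12 by its other one, and leaving out the same kind of probe set made it 1 gene at least 2-fold higher. None of 15 measured genes of the RNA exosome and its Ski partners did either (median -0.05), led by the exosome core gene Exosc2 (-0.50) and the exosome nuclease gene Dis3 (-0.39). The same held for 7 measured genes of nonsense-mediated decay (median 0.14), where Smg8 was at -0.82 and Smg6 at 0.61. Upf1, the helicase that works with Zc3h12a, had signals of 178 with PC-3 medium and 149 with MDA-PCa2b medium.

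Of 13 other measured RNA-binding proteins of AU-rich and stem-loop elements, 1 was at least 2-fold higher and none lower, with a median of -0.02. Of all measured genes, 2.12% were at least 2-fold higher and 1.85% lower. The higher gene of this list was Arid5a, which is known in mouse cells to protect Il6 messages from Zc3h12a. Its signals were 257 with PC-3 medium and 126 with MDA-PCa2b medium, 2.03-fold higher on its only probe set. With log2(signal + 16) and no floor the log2 ratio was 0.94, under 2-fold, and a floor at the 75th percentile left no ratio to give. Over all 69 measured decay factors of these 6 lists, 1 was at least 2-fold higher and 0 lower, and the median was -0.0032, against -0.04 over all genes.

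Among kinases, adaptors and proteases known to act on the members, 2 of 18 measured genes were at least 2-fold higher and none lower, with a median of 0.10. Over all measured genes these shares were 2.12% and 1.85%. Traf3ip2, the Act1 adaptor gene of interleukin-17 receptors, had signals of 608 with PC-3 medium and 223 with MDA-PCa2b medium, 2.72-fold higher. Ikbke, an inducible kinase gene whose product is known to phosphorylate Act1, had 265 with PC-3 medium and 116 with MDA-PCa2b medium, 2.29-fold higher, although both signals were at the floor when that was set at the 75th percentile.

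The messages known to be bound by these proteins were chosen from earlier studies of other cells, mostly immune cells. The choice was made with earlier results of these data known. The counts and medians below thus describe the listed genes and are no independent support. Of 12 measured Zfp36 targets 5 were at least 2-fold higher and 1 lower, against 2.12% and 1.85% of all measured genes. Their median log2 ratio was 0.54. Cxcl1, a neutrophil chemokine gene, had signals of 3389 with PC-3 medium and 144 with MDA-PCa2b medium, and log2 ratios of 4.55 by its brightest probe set and from 1.77 to 5.29 by its others. Ccl2, a monocyte chemokine gene, was 14.3-fold higher (2113 with PC-3 medium and 148 with MDA-PCa2b medium). The cytokine gene Il6 was 3.48-fold higher (372 with PC-3 medium and 107 with MDA-PCa2b medium), and the early response gene Ier3 was 3.13-fold higher. The other higher gene was Lif, which encodes leukaemia inhibitory factor (log2 ratio 1.07, and 0.96 with log2(signal + 16)), and the lower one was Myc (log2 ratio -1.04). Lif was named after its value was seen. The other 6 measured targets were under 2-fold by their brightest probe sets. Their log2 ratios were 0.67 for Vegfa, 0.41 for Ptgs2, 0.22 for Dusp1, 0.16 for Cxcl2, -0.33 for Ccl3 and -0.61 for Fos. These 6 were named after their values were seen. The 7 listed targets that were not measured, Tnf and Csf2 among them, were below the floor on both arrays.

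Of 11 measured Zc3h12a targets 5 were at least 2-fold higher and none lower, with a median of 0.42. That median is the bound of Nfkbid, so it depends on the floor. Besides Cxcl1 and Il6, the higher ones were Nfkbiz and Lcn2. Nfkbiz, the gene of a nuclear NF-kB cofactor, had 2313 with PC-3 medium and 441 with MDA-PCa2b medium. It was 5.24-fold higher (log2 ratio 2.39), and its other probe sets were at 1.23 and 1.96. Lcn2, a siderophore-binding protein gene, was at least 8.44-fold higher (479 with PC-3 medium and 32.2 with MDA-PCa2b medium). The fifth was Egln3, an oxygen-sensing hydroxylase gene named after its value was seen (log2 ratio 1.59). Cxcl3 (58.6 with PC-3 medium and 12.8 with MDA-PCa2b medium) was at least 1.03-fold higher. Nfkbid (76.1 with PC-3 medium and 45.1 with MDA-PCa2b medium) was at least 1.34-fold higher. These bounds do not show whether either gene reached 2-fold. Other targets above both floors were under 2-fold by their brightest probe sets, such as the transferrin receptor gene Tfrc and the cyclooxygenase gene Ptgs2. Tfrc had 5190.0 with PC-3 medium and 4660 with MDA-PCa2b medium (log2 ratio 0.16, and 0.50 and 0.72 by its other probe sets). Ptgs2 had a log2 ratio of 0.41, and -0.0051 by its second probe set. These genes were also named after their values were seen.

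Of 4 measured roquin targets 2 were at least 2-fold higher, Nfkbiz and Il6, which are also in the Zc3h12a list, and the median was 1.11. This median rests in part on the bound of Nfkbid, so it depends on the floor too. The 14 measured Elavl1 targets had a median of 0.06, with Il6 at least 2-fold higher and Myc at least 2-fold lower. Over all 28 measured targets of the 4 overlapping lists, 8 were at least 2-fold higher and 1 lower, with a median of 0.22. The shares over all measured genes were 2.12% and 1.85%. Under a floor at the 75th percentile, Il6 (log2 ratio 0.32) and Lcn2 (0.68) were no longer 2-fold different and Lif had no ratio, which left 3 higher Zfp36 targets. Myc, Ier3 and Lcn2 had no ratio when probe sets that can match several transcripts were left out. That setting left 4 higher Zfp36 targets and 4 higher Zc3h12a targets. The arrays measured message levels alone, so the lifetime of a message was not observed.

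**Figure D3:**
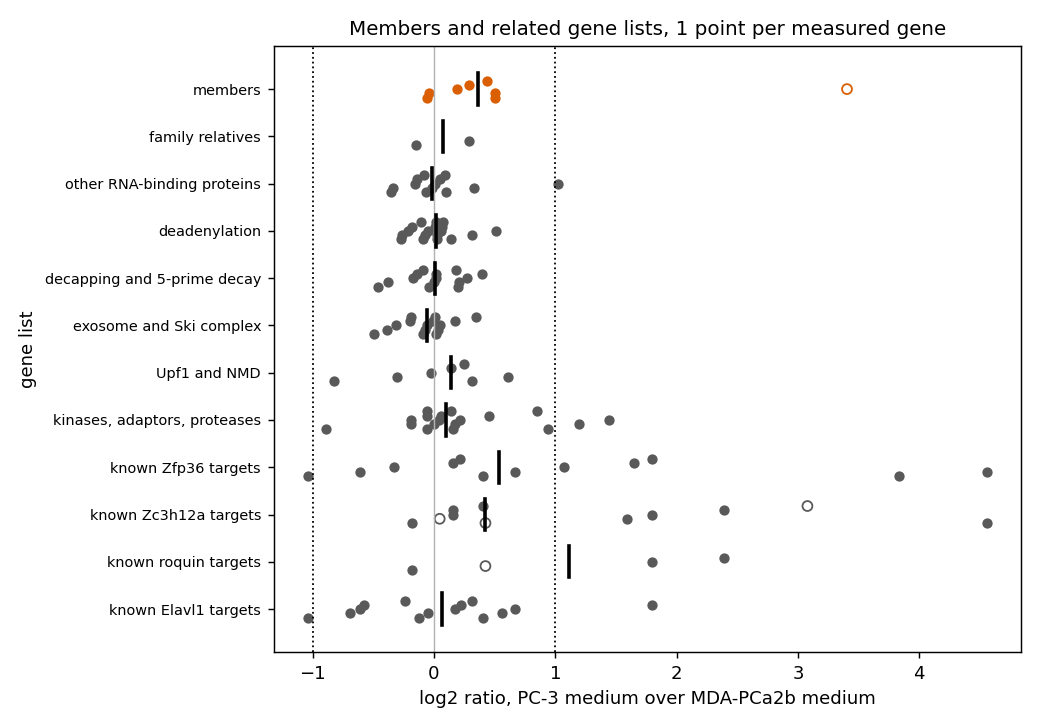
Log2 ratio, PC-3 medium over MDA-PCa2b medium, of each measured gene (1 point per gene, open where it is a bound) for the members and the related lists, with bars at list medians and dotted lines at 2-fold. Medians of the deadenylation, decapping and exosome lists lie between -0.05 and 0.02, and those of the Zfp36, Zc3h12a and roquin targets at 0.54, 0.42 and 1.11. The Zc3h12a and roquin medians rest on a bound and depend on the floor.

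The ratios of the members other than Zc3h12a moved little with the processing. Over the alternative floors, scalings and probe set rules, Zfp36 ranged from 0.18 to 0.23 on the log2 scale, Zfp36l1 from 0.43 to 0.65, Zfp36l2 from 0.11 to 0.33, Rc3h1 from 0.49 to 0.54 and Zc3h12c from 0.45 to 0.54. Elavl1 lay between -0.06 and -0.01, and Rc3h2 between -0.05 and 0.19. The value of Zc3h12a ranged from 1.01, a bound, to 3.90, a ratio measured above the lower floor, and was at least 2-fold in each.

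**Figure D4:**
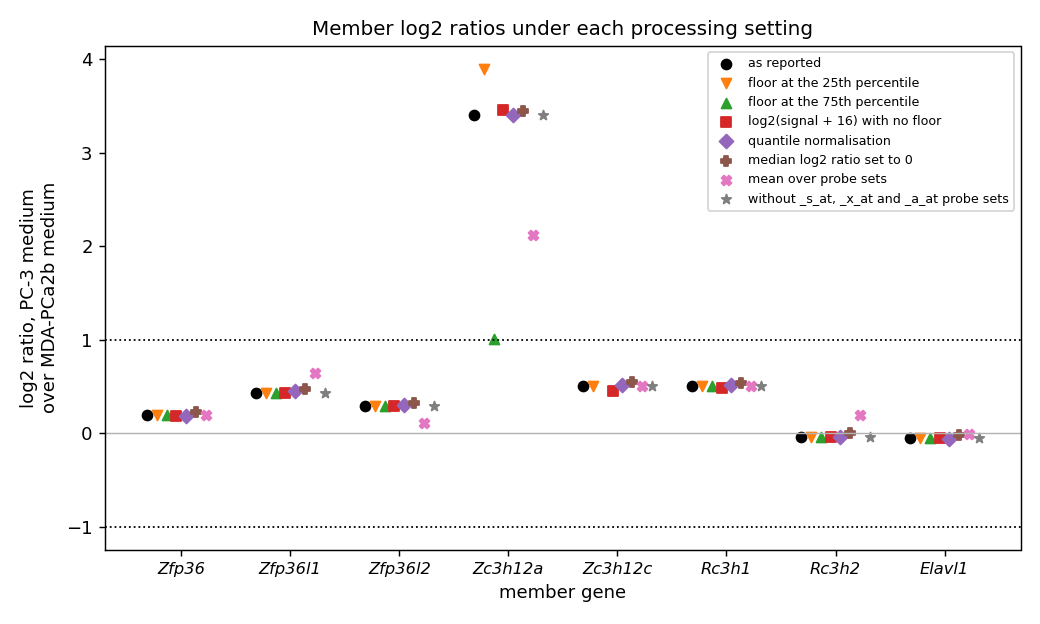
Log2 ratio, PC-3 medium over MDA-PCa2b medium, of each member gene as reported (black circles) and under 7 alternatives of floor, scaling and probe set use, with dotted lines at 2-fold. Zc3h12a spreads from 1.01 to 3.90, and no other member crosses 2-fold.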

How the data were processed

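The authors deposited 1 linear intensity per probe set and array, and the submitters' processing notes name GCOS 1.4 and MAS5. Detection calls, background options and the scaling target are not given in the sources used here, and presence was not called. The number of arrays, 1 per medium, limits the precision, and it allowed no error or test between the media. Of 45101 probe sets, 64 were controls, and 0 further columns held per-sample values. Names came from the platform annotation, none from a probe set with several genes (932). The 8 members all matched a table of mouse genes by Entrez identifier.

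Signals were floored at the 50th percentile of the array, and the log2 ratio was PC-3 medium minus MDA-PCa2b medium. Each gene was represented by its probe set of highest mean signal. All members were named. In each list the measured genes at least 2-fold different were named, up to 4 by size, or 2 where no gene passed, and for a member at least 2-fold different the 3 genes with the nearest ratio. Genes said to be so, and Zc3h12d, Upf1, Pabpc1, Xrn1, Tnf, Csf2, Cxcl3 and Nfkbid, were named after their values were seen. Members and lists were chosen with earlier results of these data known. Scripts (Python 3.11.15, pandas 2.3.3, numpy 2.4.6) were tested on simulated data, and 9 alternatives were tried.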

Additional observations from a re-analysis of the deposited data

How the results depend on the processing

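The counts of members at least 2-fold higher (1) and lower (0) were the same under all 9 alternatives. Of 54 member ratios under alternatives 51 moved by less than the scatter SD, and the 3 that moved more were those of Zc3h12a under floors at the 25th percentile (3.90, no longer a bound) and the 75th percentile (1.01) and with the mean over probe sets (2.12). Of the 54, 53 kept their sign, the exception being Rc3h2 with the mean over probe sets. Zc3h12c had no ratio under the highest floor, and Zfp36 had none without probe sets that can match several transcripts. The number of pathway genes at least 2-fold different was 12. A floor at the 75th percentile gave 7, and it was 20 at a threshold of 1.5-fold and 7 at 3-fold. The scatter SD was 0.24. The floor at the 25th percentile made it 0.36, the floor at the 75th percentile 0.16 and log2(signal + 16) 0.38. Over all genes, 240 were at least 2-fold higher and 210 lower. The floor at the 25th percentile gave 684 and 589, the floor at the 75th percentile 127 and 77, log2(signal + 16) 527 and 436, a threshold of 1.5-fold 634 and 744, and one of 3-fold 96 and 46. Without probe sets that can match several transcripts, 1 deadenylation gene (Pabpc1) and 1 decapping gene (Xrn1) were at least 2-fold higher, against 0 of each as reported. Single list counts stayed within 1.5 times in 172 of 198 cases. Targets of Zfp36 at least 2-fold higher numbered from 3 to 6 (5 as reported) and those of Zc3h12a from 3 to 9 (5 as reported). Fewer genes lie above a higher floor, and ratios against it are smaller by construction. No paired analysis was possible because each medium had 1 array. Signals near the floor give bounds, so the size of the Zc3h12a difference is limited by the low signal with MDA-PCa2b medium.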
